A study of Mus musculus with 12 samples.

Results

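SLM2 is an RNA-binding protein of neurons, encoded by *Khdrbs3*, and the sites described here are the SLM2 peaks that lay in an exon or beside one. A peak is a stretch of RNA that was enriched after enhanced cross-linking and immunoprecipitation (eCLIP) over a size-matched input from the same lysate. The members were all peaks whose centre lay in an annotated exon, or in an intron within 1000 nt of an exon boundary, of a gene on the same strand. They numbered 371 of the 2235 peaks in both lists. In whole brain 291 of 2057 peaks qualified (14.1%, 95% interval 12.7 to 15.7), in 167 genes, and in hippocampus 80 of 178 (44.9%, 37.5 to 52.6), in 40 genes. The remaining peaks, 1766 in whole brain and 98 in hippocampus, lay deeper in introns and are called deep intronic below.

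Whole brain and hippocampus came from wild-type mice aged 30 days, each tissue contributing 2 eCLIP libraries and their 2 size-matched inputs. A lysate held 1 whole brain or 4 pooled hippocampi, so every peak is an average over all cells of the tissue. Mice with a deletion of *Slm2* gave 2 further eCLIP and 2 further input libraries from hippocampus, which were not analysed here, so no value below carries a background from tissue without SLM2. The authors merged both replicates of a tissue into 1 list, so a peak has 1 value and no spread between replicates. The exact (Clopper-Pearson) intervals beside shares cover counting error only. Read depth behind single peaks is unknown from the lists. Tissue and depth therefore cannot be told apart in any comparison of the tissues, nor can fewer cells that express a transcript be told apart from less of that RNA per cell. For each peak the lists give the log2 fold change of eCLIP over input, which was at least 2 by the authors' threshold, and the −log10 of its p-value.

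SLM2 belongs to the STAR family of RNA-binding proteins, together with SAM68 and SLM1. These proteins bind short A- and U-rich elements through a KH domain, and they control whether an alternative exon is kept or skipped when a pre-mRNA is spliced. Their best known targets are the neurexins, presynaptic adhesion molecules whose transcripts carry an exon at alternatively spliced segment 4. An intronic site close to an exon is removed with the intron, while a site in an untranslated region (UTR) or in a long non-coding RNA stays with the spliced transcript.

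The element counted here is UWAA, written out as UUAA or UAAA on the strand of the RNA and searched within 50 nt of the peak centre, a window of 101 nt. A stretch of UUAAA holds a start of each form. The following 30-nt stretches were read from mm10 (GRCm38), 5′ to 3′, with the bases of every UWAA hit in capitals. They are the stretch with the most hits in the window of each peak. The first set stands for peaks downstream of exons that some transcripts skip, the group that holds the neurexin sites.
Nrxn2, centre 66 nt downstream of the exon, chr19:6513850-6513879, plus strand: UUAAAaacacgaucUUAAAggugcagagcu
Nrxn3, 138 nt downstream, chr12:90199337-90199366, plus strand: UAAAugacuguuUUAAuuuucauuauaauu
Stxbp5l, 308 nt downstream, chr16:37141930-37141959, minus strand: guUUAAAagaacacauuaUUAAAuucUAAA
Slc4a10, 112 nt downstream, chr2:62244516-62244545, plus strand: UUAAAcccuuUUAAAuguguuccaucugcc
Gria4, 145 nt downstream, chr9:4426838-4426867, minus strand: uaggcaaUAAAacucuuucccagcaaUAAA

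The second set shows peaks upstream of skipped coding exons, where 12 of 13 windows held the element.
Dlg1, 181 nt upstream, chr16:31846607-31846636, plus strand: UAAAgcugaaugugcucUAAAauuUUAAua
Fam135a, 107 nt upstream, chr1:24049333-24049362, minus strand: UUAAAcuugaauguacaucauuuguaauuc
Lrrc7, 598 nt upstream, chr3:158149286-158149315, minus strand: UUAAAcuuauuacuUUAAAuUUAAuauaua

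The third set shows G- and C-rich sites beside exons whose windows hold no UWAA, a kind of site that was common downstream of first exons. For these the central stretch of the peak is given.
Grm4, 127 nt downstream of a 141-nt exon, chr17:27449984-27450013, minus strand: ggcagagccuguaggaggugggacuuuagg
Rbfox3, 170 nt downstream of a first exon, chr11:118909120-118909149, minus strand: accugaggucgcgcgaggaugggguggcgc

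The last set comes from peaks centred in exons, a 3′ UTR peak and a coding-exon peak that reached across a neurexin splice site. The UWAA of the latter lies in the intron, and the 90-nt exon itself holds 0 starts.
Cacng2, 3′ UTR, chr15:77994846-77994875, minus strand: uUUAAAcaaagcaagagggaUAAAaUUAAA
Nrxn2, coding exon, chr19:6513702-6513731, plus strand: UAAAcuuuuccaaggaaacuuugauaacga

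*Nrxn2* and *Nrxn3* carried peaks immediately downstream of a 90-nt exon that some annotated transcripts skip. In *Nrxn2* the exon (chr19:6513716-6513805) had 6 intronic whole-brain peaks within 1000 nt, the most beside any exon. The 4 downstream peaks were centred 66, 509, 737 and 876 nt from the exon, with log2 fold changes of 3.96, 2.46, 3.50 and 3.89. The 2 upstream peaks, at 417 and 56 nt, had log2 fold changes of 3.31 and 2.47. A further peak of 69 nt (chr19:6513707-6513775) reached from the last bases of the intron into the exon itself, with a log2 fold change of 2.08, so peaks lay on both sides and across the 3′ splice site. The downstream windows at 66, 737 and 876 nt held 7, 4 and 5 UWAA starts, and the window at 509 nt held 0. The *Nrxn3* exon (chr12:90199147-90199236) had 1 whole-brain peak, 138 nt downstream, with a log2 fold change of 3.86 and 4 UWAA starts. In both genes the downstream peak nearest to the exon thus had a log2 fold change of 3.86 or 3.96, against a median of 2.60 over all 121 downstream peaks of whole brain.

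The hippocampal list held the same stretch of RNA in *Nrxn2* and *Nrxn3*. The hippocampal *Nrxn3* peak was centred 110 nt downstream of the exon and shared 194 nt with the whole-brain peak, at a log2 fold change of 2.73 against 3.86. The hippocampal *Nrxn2* peak lay 742 nt downstream and shared 135 nt with the whole-brain peak at 737 nt, at a log2 fold change of 2.63 against 3.50. Its −log10 p was 1.49, and that of the *Nrxn3* peak was 1.61, so both were weak against input in that list.

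The exons described next had peaks on 1 side only. *Stxbp5l* encodes tomosyn-2, an inhibitor of synaptic vesicle release. Its 171-nt skipped exon had a peak 308 nt downstream with a log2 fold change of 4.05, and its 72-nt skipped exon had 1 peak 362 nt upstream with a log2 fold change of 3.52. A 66-nt exon of *Stxbp5l* with no annotated skipping carried 4 peaks, all downstream, between 286 and 700 nt, with log2 fold changes from 2.36 to 3.44. *Slc4a10*, which encodes a sodium-dependent bicarbonate transporter, had a peak 112 nt downstream of a 90-nt exon (log2 fold change 3.45). The AMPA receptor gene *Gria4* had one 145 nt downstream of a 115-nt exon (2.88). *Brinp3* had one 705 nt downstream of a 66-nt exon (4.04), and *Ralgapa1*, which encodes a subunit of a GTPase-activating complex, had one 602 nt downstream of a 31-nt exon (2.95). All of these windows held UWAA, with 3 to 8 starts. A deep intronic peak of *Stxbp5l* was centred 1030 nt upstream of the 171-nt exon, just outside the limit. The next exons had peaks on their upstream side alone, several of them in genes of the postsynaptic density. *Dlg1*, which encodes the scaffold SAP97, had peaks 181 and 484 nt upstream of a 100-nt exon (log2 fold changes 2.66 and 2.18). *Lrrc7*, which encodes densin, had peaks 301 and 598 nt upstream of a 120-nt exon (2.03 and 3.59). *Anks1b* had 1 peak 350 nt upstream of a 129-nt exon (3.28), and *Fam135a* had peaks 107 and 447 nt upstream of a 78-nt exon (2.34 and 2.55).

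**Figure D1:**
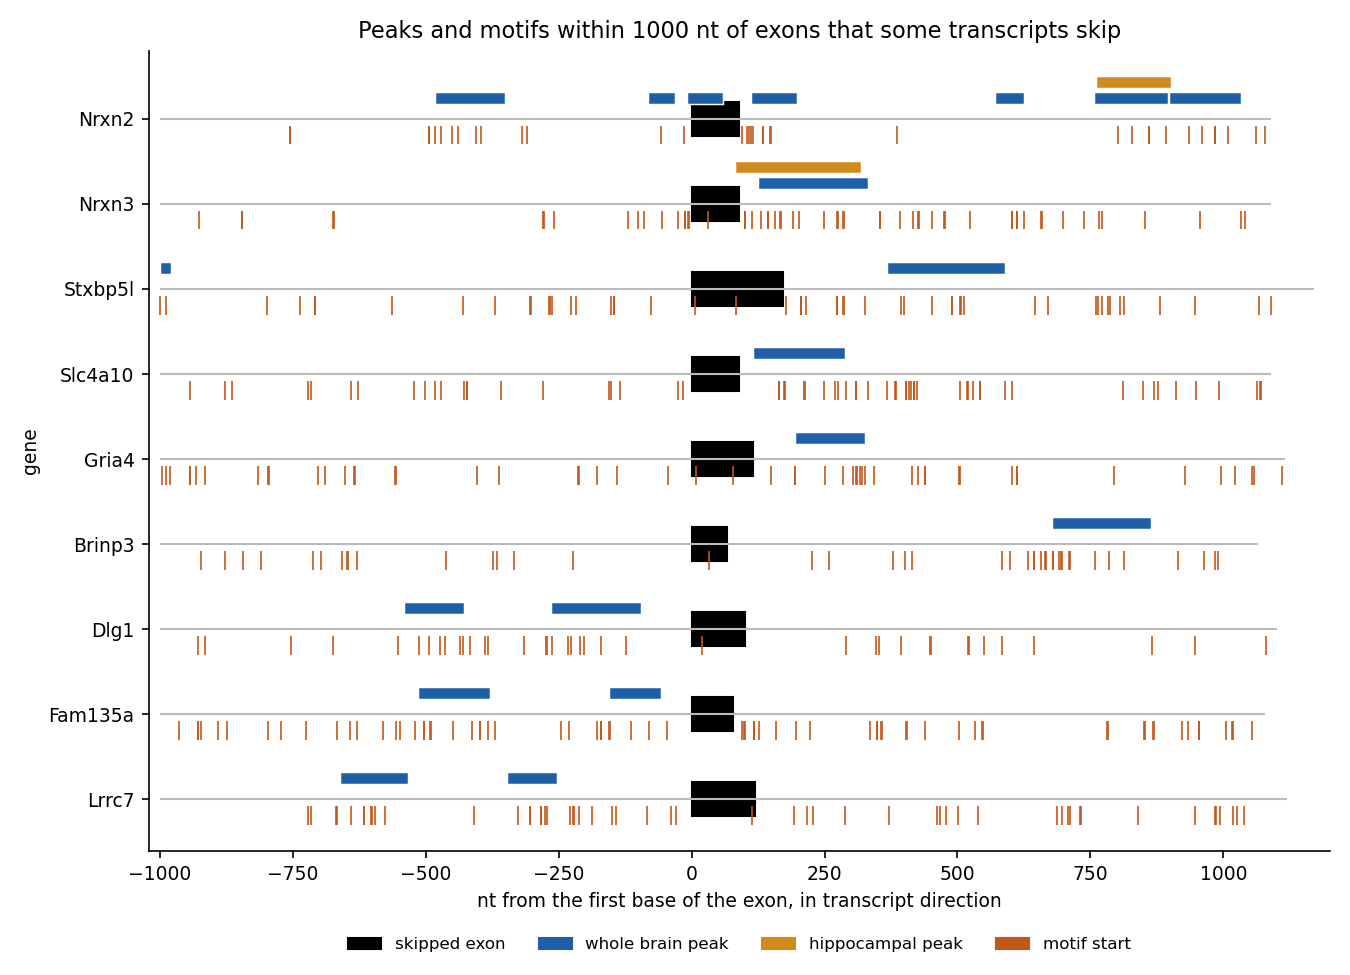
SLM2 peaks and UWAA starts around 9 exons that some transcripts skip, drawn from 1000 nt upstream to 1000 nt downstream of each exon. The x axis is the distance in nt from the first base of the exon in transcript direction, black boxes are exons, blue bars are whole-brain peaks, yellow bars are hippocampal peaks and orange ticks are motif starts. Peaks stood downstream of the exon in *Nrxn3*, *Slc4a10*, *Gria4* and *Brinp3*, upstream in *Dlg1*, *Fam135a* and *Lrrc7*, and on both sides in *Nrxn2*. In *Stxbp5l* a member peak stood downstream. The bar at its left edge is a deep intronic peak, centred 1030 nt upstream of the exon and so outside the limit.

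UWAA starts were plentiful on both sides of these exons whether or not a peak was called there. Around the *Nrxn2* exon there were 14 starts in the 1000 nt upstream and 22 in the 1000 nt downstream, and around the *Nrxn3* exon 17 and 41. *Dlg1* had 24 upstream and 14 downstream, and *Fam135a*, whose peaks lay only upstream, had 36 and 35. The first 200 nt downstream of the exon held 9 starts in *Nrxn2* and 16 in *Nrxn3*.

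Across the whole-brain list, exons next to peaks were often ones that some transcripts skip. Peaks whose nearest boundary was a splice site of an internal exon numbered 77, and 37 of them (48.1%, 36.5 to 59.7) stood beside such an exon. Counted once each, 21 of the 54 exons concerned (38.9%) were skipped in some transcript. Among all 817 internal exons of the same 40 genes the share was 17.5%, a description without a test, since exons of 1 gene are not independent and genes differ in how many transcripts are annotated. Of the skipped coding exons with a peak, 6 of 8 with a peak upstream and 9 of 12 with a peak downstream had a length divisible by 3, so that skipping them keeps the reading frame. An exon with peaks on both sides, such as that of *Nrxn2*, counts in both groups. No such share was taken over all 123 skipped coding exons of the same genes. The counts therefore do not show whether exons with peaks differ from the others. The difference between the sides in the share beside skipped exons did not pass the test. Of the peaks downstream of internal exons 23 of 42 were beside a skipped exon, and of those upstream 14 of 35, 14.8 percentage points apart (two-sided Fisher's exact test, p = 0.254, adjusted p = 0.323). With a limit of 500 nt the difference was −18.5 points. In hippocampus 2 of the 8 peaks beside internal exons were next to a skipped exon, and these were the *Nrxn2* and *Nrxn3* peaks.

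Intronic peaks near exons of whole brain stood more often downstream than upstream. Of 182 such peaks, 121 (66.5%) were downstream of the nearest exon and 61 upstream (exact binomial test against equal numbers, two-sided, p = 1.03e-05, adjusted p = 3.60e-05 over the 14 comparisons made). At splice sites of internal exons alone, an alternative chosen after seeing the data, the share was 54.5% (42 of 77, exact p = 0.494, adjusted p = 0.692). Over all boundaries, introns of the genes with peaks offered 6.66 megabases on the downstream side and 6.67 on the upstream side within 1000 nt. Of the downstream peaks 51 lay after the first exon of a transcript, and 28 after an annotated transcript end inside a longer gene. Of the upstream peaks 19 lay before an internal transcript start and 7 before a last exon. In hippocampus 7 of 13 such peaks were downstream (exact p = 1). All splice sites next to these peaks, 135 in whole brain counted per peak and 11 in hippocampus, had the canonical GU or AG dinucleotide.

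In whole brain the lean towards the downstream side did not end at 1000 nt, and the density of peaks near exons was close to that in deep introns. Per megabase of intron in the genes with peaks, the first 1000 nt on the downstream side held 18.2 peaks (exact Poisson interval 15.1 to 21.7) and the first 1000 nt on the upstream side 9.15 (7.0 to 11.8). From 1001 to 5000 nt the values were 15.3 (13.3 to 17.6) downstream and 6.70 (5.38 to 8.24) upstream, and beyond 5000 nt they were 16.8 (15.8 to 17.9) and 8.29 (7.57 to 9.06). Both sides together gave 13.7 peaks per megabase within the limit (11.7 to 15.8) and 12.3 beyond it (11.7 to 12.8), with overlapping intervals. In hippocampus the values were higher near exons, 5.10 peaks per megabase within the limit (2.72 to 8.73, 13 peaks) and 2.59 beyond it (2.10 to 3.15), with intervals that also overlapped. Close to internal exons of whole brain the counts were small. Within 200 nt there were 11 peaks downstream, in 10 genes, and 3 upstream, and within 300 nt there were 15 and 6. The 3 nearest upstream sites were in *Nrxn2* (56 nt), *Fam135a* (107 nt) and *Dlg1* (181 nt). At the other end of the range, *Gria2* (975 nt upstream, log2 fold change 2.40) and *Ahdc1* (1000 nt downstream, 2.85) were just inside the limit, and *Ctnnd2* (1007 nt) and *Grm4* (1020 nt, 2.23) were just outside it.

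**Figure D2:**
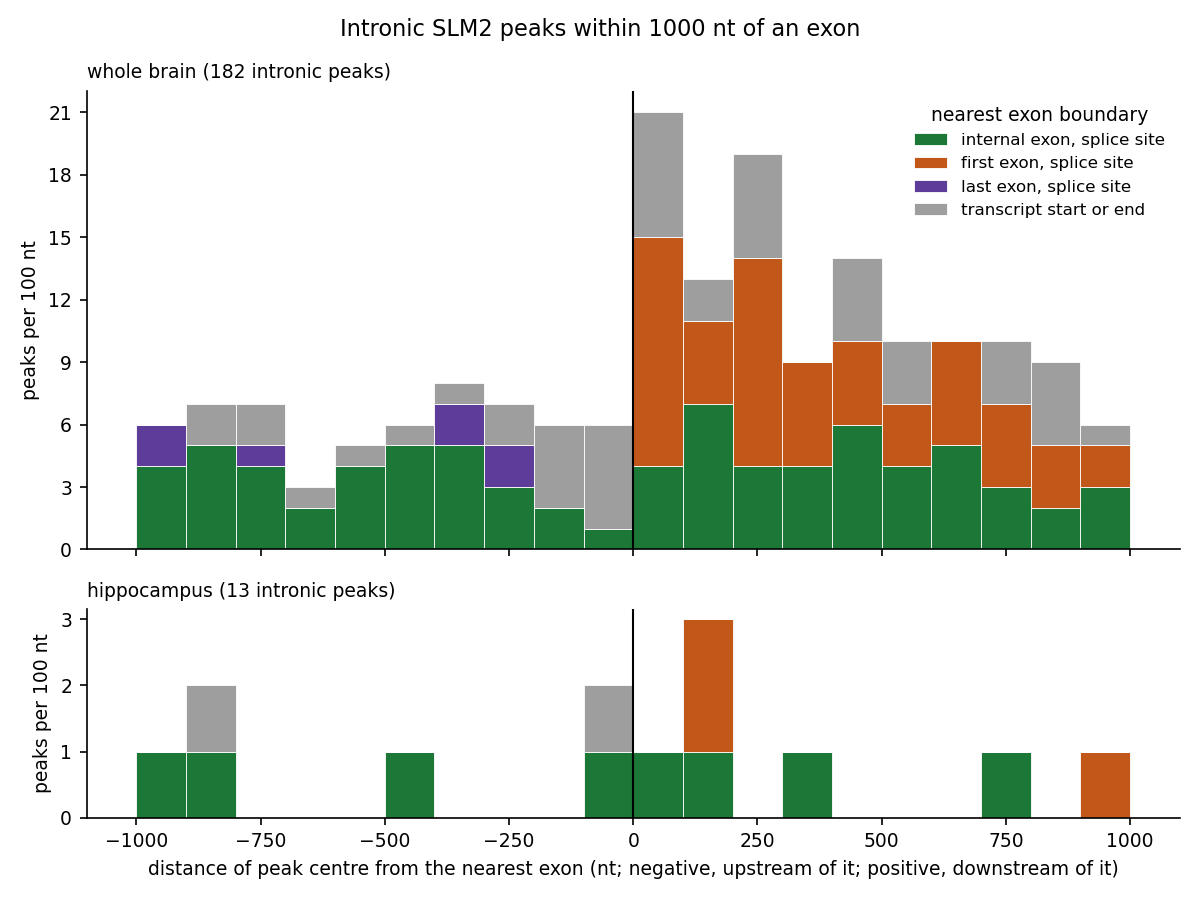
Distance of intronic peaks from the nearest exon, in bins of 100 nt, for whole brain (top, 182 peaks) and hippocampus (bottom, 13 peaks). The x axis is the distance in nt, negative upstream and positive downstream, the y axis counts peaks and colours give the kind of boundary; downstream bins rise above upstream bins mainly through first exons (51 peaks), while internal exons contribute 35 peaks upstream and 42 downstream.

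Peaks beside exons held UWAA less often than deep intronic peaks. In whole brain 111 of 182 exon-side peaks (61.0%, 53.5 to 68.1) had at least 1 UWAA in the window, against 1528 of 1766 deep intronic peaks (86.5%, 84.8 to 88.1), which makes −25.5 percentage points (two-sided Fisher's exact test, p = 1.01e-15, adjusted p = 7.10e-15). The direction and the call held in all alternatives tried, and at splice sites of internal exons alone the difference was −12.5 points (57 of 77, Fisher's exact test, adjusted p = 0.0138). Any 101-nt window of these introns often holds the motif. It was present in 59.4% of all windows tiled over the downstream sides of the genes with peaks, in 60.5% over the upstream sides and in 61.3% over their deep introns. Taken over both sides, the share at exon-side peaks was thus close to that of the surrounding sequence, whereas the deep intronic share was above it. The sides differed in this. Upstream peaks stood at 73.8%, above the 60.5% of their windows, and downstream peaks at 54.5%, below the 59.4% of theirs. Kinds of exon boundary differed further, as given below. No share was tested against the windows. In hippocampus 8 of 13 exon-side peaks and 78 of 98 deep intronic peaks held UWAA (−18.1 points, exact p = 0.163, adjusted p = 0.229), a comparison that 13 peaks leave imprecise (31.6 to 86.1 for 61.5%).

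The 2 sides differed, and the kind of boundary accompanied the difference. UWAA was present at 45 of 61 upstream peaks (73.8%, 60.9 to 84.2) and 66 of 121 downstream peaks (54.5%, 45.2 to 63.6) of whole brain (−19.2 points, Fisher's exact p = 0.0155, adjusted p = 0.0362). This call was lost in 6 alternatives of the same exact test, among them 1 peak per gene and group (−18.8 points, adjusted p = 0.181) and leaving out *Rbfox3* (−17.6, adjusted p = 0.0678). At splice sites of internal exons it was larger, with 25 of 42 downstream and 32 of 35 upstream peaks (−31.9 points, exact test, adjusted p = 0.00762). Downstream of first exons 17 of 51 peaks held the motif (33.3%, 20.8 to 47.9), and the median G+C content of their windows was 64.4%. Downstream of internal exons it was 59.5% of peaks at a median G+C of 45.5%, and downstream of transcript ends 24 of 28 (85.7%) at 32.7%. Upstream of internal exons 91.4% of peaks held it at 30.7% G+C, and before transcript starts 8 of 19 (42.1%) at 55.4%. Deep intronic peaks had a median G+C of 32.7%. Motif share was thus lower where G+C content was higher over the kinds of boundary. UWAA holds only A and U and both were measured in the same window, so the 2 are linked by construction. Which of them the peaks follow was not tested.

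**Figure D3:**
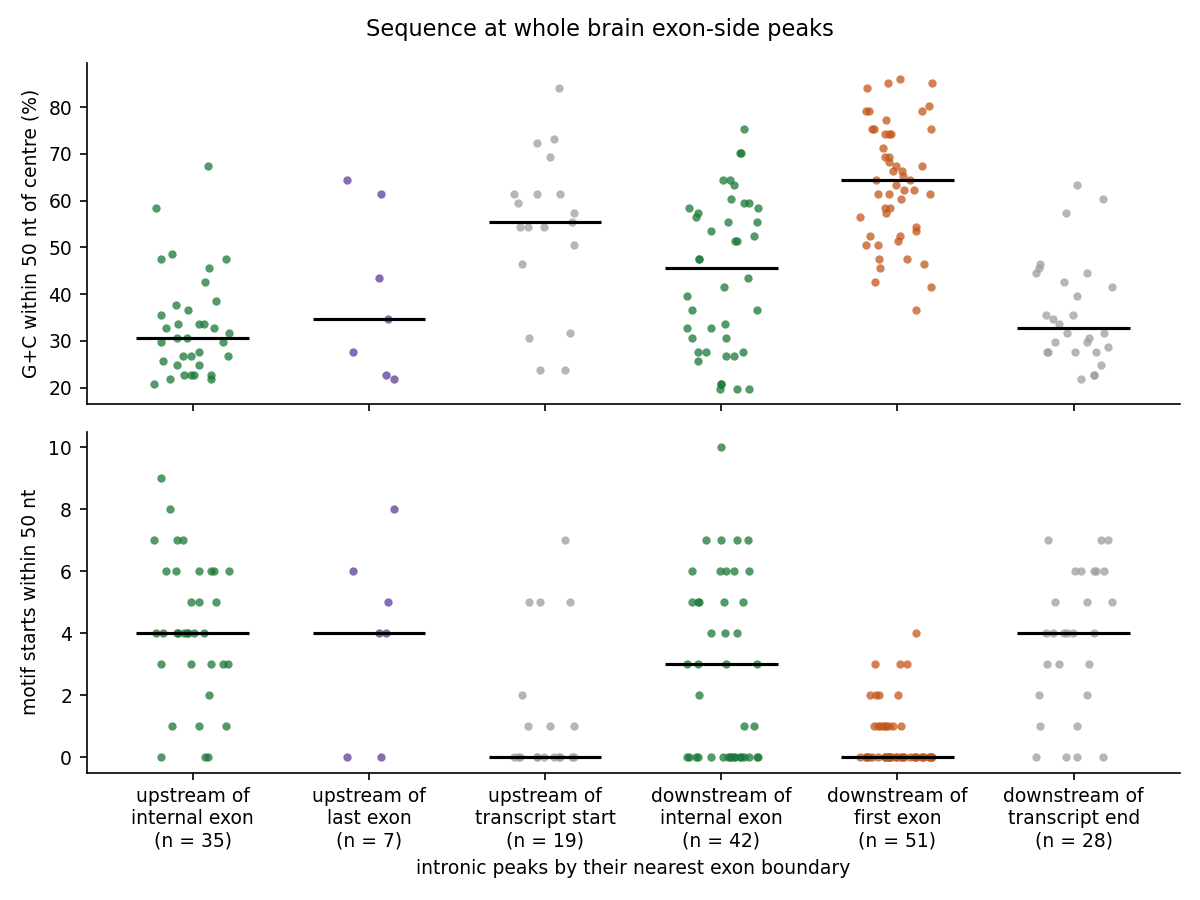
G+C content (top, percent) and number of UWAA starts (bottom) in the 101 nt around each of the 182 exon-side peaks of whole brain, grouped by the nearest exon boundary on the x axis. Each point is 1 peak and each line a group median; peaks downstream of first exons had the highest median G+C (64.4%) and a median of 0 motif starts.

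Several genes with many members were rich in G and C at their sites. *Rbfox3*, which encodes the neuronal splicing regulator known as NeuN, had 18 member peaks, more than any other whole-brain gene, 14 of them downstream. It also had many peaks in all, 102, beside 291 members among 2057 peaks over the whole list. Log2 fold changes of its members ranged from 2.15 to 3.34, their median G+C was 61.9% and 7 of their windows held UWAA. Downstream of an annotated first exon of 269 nt, 4 peaks followed each other at 170, 339, 448 and 616 nt, with log2 fold changes of 3.34, 2.74, 2.55 and 2.47 and 1 UWAA start in all. *Grm4*, which encodes a metabotropic glutamate receptor, had 10 members among its 31 whole-brain peaks. The members had a median G+C of 60.9%, log2 fold changes from 2.00 to 3.48 and UWAA in 1 window. A 141-nt skipped exon of *Grm4* had peaks 127 and 913 nt downstream without any UWAA, and an 887-nt exon had peaks at 127 and 561 nt. *Srcin1* had 1 peak of this kind, 343 nt downstream of a 63-nt skipped exon (log2 fold change 2.21, G+C 64.4%). *Mbp*, which encodes myelin basic protein of oligodendrocytes, had 10 member peaks in introns and the 3′ UTR at a median G+C of 58.4%, 1 of them with UWAA. A contrast within receptors was *Gria2*, an AMPA receptor subunit with 12 whole-brain peaks, whose 9 member peaks had a median G+C of 26.7% and all held UWAA. Of those, 3 lay upstream of a 199-nt exon, between 789 and 975 nt, and 3 downstream of a transcript end, the strongest with a log2 fold change of 2.63.

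Few peaks were centred in exons of coding transcripts. Whole brain had 8 in coding exons, 16 in 3′ UTRs and 6 in 5′ UTRs. Of the 8 coding-exon peaks, 5 (in *Brms1l*, *Zfp536*, *Ralgapa1*, *Gm26558* and *Rspo1*) were 24 to 28 nt long and held at least 10 nt that match the sequencing adaptor. Their log2 fold changes of 3.32 to 5.27 included the highest of any whole-brain member, the *Brms1l* peak at 5.27. The same match was found in short peaks of *Dock1* (18 nt downstream of an exon), *Pard3b* (931 nt upstream) and *Kcns2* (5′ UTR), with whole-brain log2 fold changes of 5.19, 4.71 and 4.41. Adaptor matches occurred in 9 of 182 exon-side and 47 of 1766 deep intronic peaks (4.95% and 2.66%, Fisher's exact p = 0.0976, adjusted p = 0.152). Their part in the enrichment of these peaks was not tested. The coding-exon peaks without such a match included that of *Nrxn2* described above and that of the predicted gene *Gm20594* (log2 fold change 4.81).

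Most peaks in 3′ UTRs held the motif and none in 5′ UTRs did, a difference that was not tested. UWAA was present in 13 of 16 whole-brain 3′ UTR peaks (81.2%, 54.4 to 96.0) at a median G+C of 35.1%, and in 0 of 6 5′ UTR peaks (0 to 45.9%) at 74.8%. Synaptic genes were among the former. *Lrrtm4*, which encodes a postsynaptic partner of neurexins, had 2 peaks in its 3′ UTR with log2 fold changes of 2.69 and 2.10 and 7 and 4 UWAA starts. Its family member *Lrrtm2* had 1 (2.00, 4 starts). *Cacng2*, which encodes the AMPA receptor auxiliary subunit stargazin, had 1 (2.73, 7 starts), and *Gria2* had 2 (2.49 and 2.14). *Zkscan3* had the highest log2 fold change of the group, 3.4. *Tardbp*, which encodes the RNA-binding protein TDP-43, had a 3′ UTR peak in both tissues, sharing 23 nt, with log2 fold changes of 2.16 in whole brain and 2.51 in hippocampus. The 5′ UTR peaks were in *Egfl7*, *Tbkbp1*, *Rbfox3*, *Kcns2* and *Grcc10*. The *Grcc10* peaks coincided with *Rnu7*, the gene of the small nuclear RNA that processes histone transcripts, so their reads cannot be assigned to the UTR. Exonic peaks as a whole held UWAA in 81 of 109 cases in whole brain (74.3%), above the exon sides by 13.3 points (Fisher's exact p = 0.0218, adjusted p = 0.0435). That call was lost in 8 alternatives and its direction turned in peaks enriched at least 3 on the log2 scale (−3.15 points). Among the 8, a −log10 p of at least 2 left the same whole-brain peaks in. There only the adjustment for the other comparisons changed. In hippocampus 33 of 67 exonic peaks (49.3%) held UWAA, against 8 of 13 on the exon sides (exact p = 0.548, adjusted p = 0.639).

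**Figure D4:**
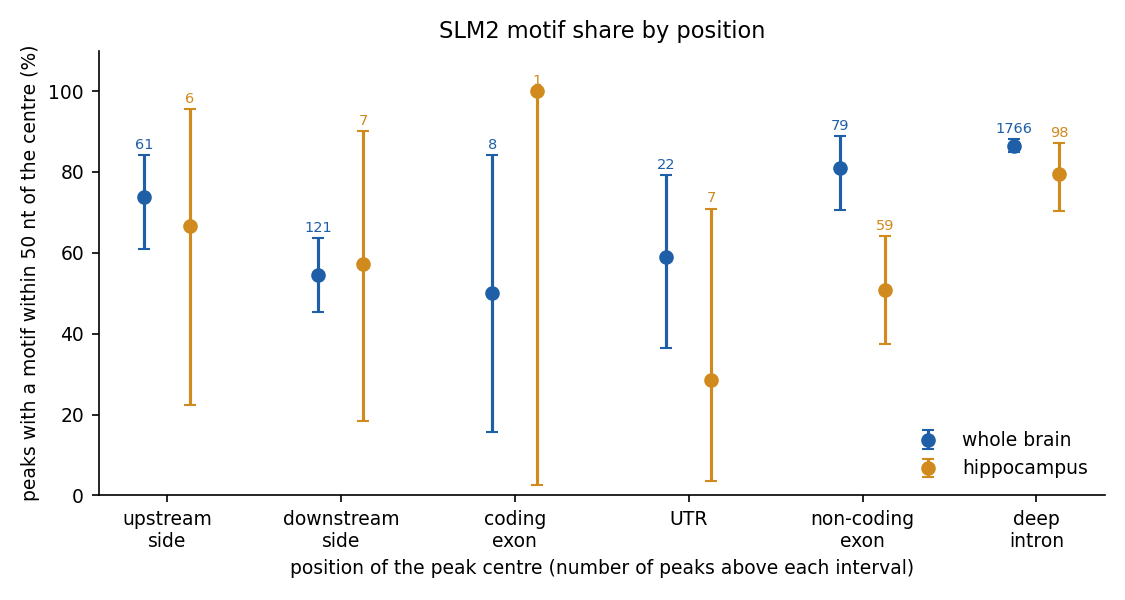
Share of peaks with at least 1 UWAA within 50 nt of the peak centre (y axis, percent) by position of the peak, in whole brain (blue) and hippocampus (yellow). Points are shares, bars are exact 95% binomial intervals and numbers count peaks; deep intronic peaks stood at 86.5% and 79.6%, and whole-brain peaks downstream of exons at 54.5%.

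Non-coding exons held 79 member peaks in whole brain. Of these, 31 were in non-coding transcripts of protein-coding genes, as in *Grik2* (a kainate receptor subunit, log2 fold changes 3.09 and 2.02) and *Syt1* (the calcium sensor of vesicle release, 2.05 and 2.94). Another 27 lay in a separate non-coding gene inside a protein-coding gene, so that the intron of the host and the exon cannot be told apart. Genes that the annotation marks as awaiting experimental proof held 23, in 17 genes, and 21 of these windows had UWAA (91.3%, 72.0 to 98.9). *Neat1*, the long non-coding RNA that builds paraspeckles, had 11 separate peaks over 7631 nt, with a median log2 fold change of 2.68 and UWAA in 7.

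The hippocampal members were of another make-up. Of the 80, 59 were in non-coding exons, against 79 of 291 in whole brain, and 6 and 7 lay upstream and downstream of exons. *Malat1*, a long non-coding RNA of nuclear speckles, had 18 peaks between log2 fold changes of 2.44 and 4.71 (median 3.17), with UWAA in 12. Joining nearly touching peaks left 9 runs, where a peak that stands alone counts as a run. The longest run held 8 peaks and the shortest peak was 4 nt long, so they are not 18 separate sites. *Meg3*, an imprinted long non-coding RNA, had 14 separate peaks between 2.07 and 4.33 (median 2.37), with UWAA in 6. *Neat1* had 1 hippocampal peak (2.36), which overlapped none of its whole-brain peaks. Small RNA genes held 22 of the 80 hippocampal members, in 15 genes, and 5 of the 291 whole-brain members, in 4. Among them were 4 peaks in *Gm26244*, annotated as a small nuclear RNA, at the list's highest −log10 p of 400 with log2 fold changes from 2.56 to 2.59, and 3 of the 4 were 1 to 7 nt long. *Gm22126*, also a small nuclear RNA gene, had the highest log2 fold change of the hippocampal members, 5.10, and 4.94 in whole brain. Such genes have near-identical copies, so the copy a read came from is uncertain. In all, 26 hippocampal members (32.5%) lay within 2 nt of another peak, against 5.84% in whole brain, and 12 were at most 10 nt long, against 0. Of the 13 hippocampal peaks beside exons, 10 had a −log10 p under 2. No whole-brain member did.

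**Figure D5:**
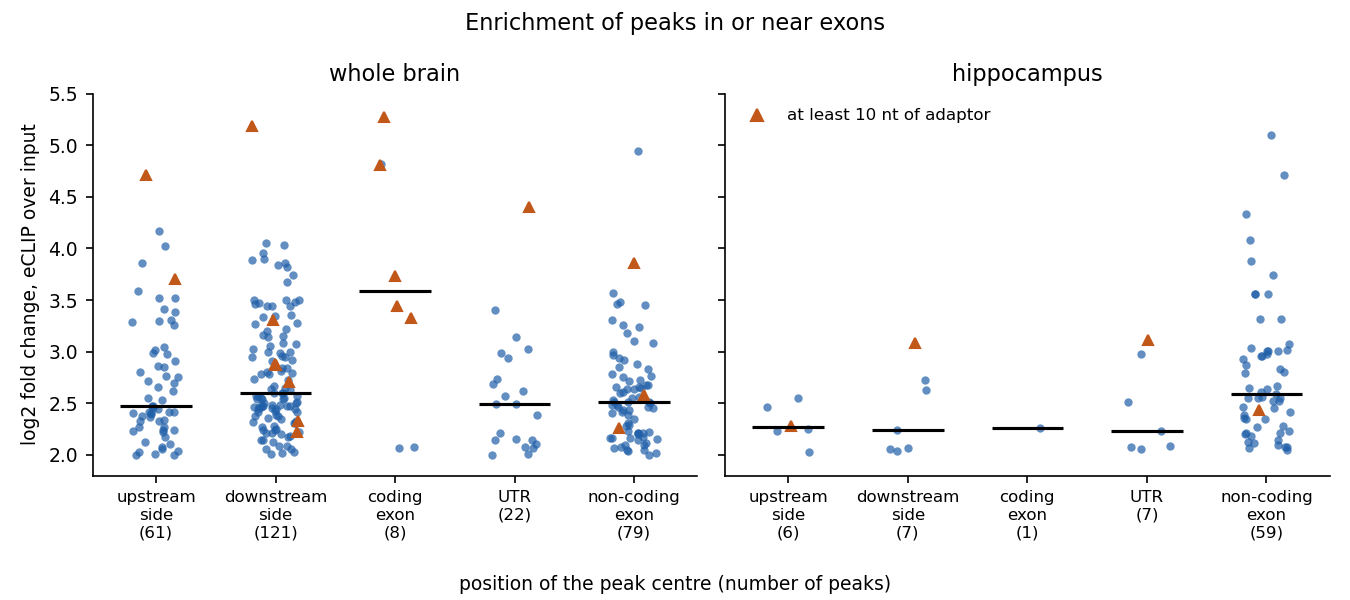
Log2 fold change of eCLIP over input (y axis) for each member peak by position, in whole brain (left, 291 peaks) and hippocampus (right, 80 peaks). Points are peaks, lines are medians and triangles mark peaks with at least 10 nt of adaptor sequence; the y axis starts near the authors' threshold of 2, and 5 of the 8 whole-brain coding-exon peaks are triangles.

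The hippocampal list had a larger share of members than the whole-brain list. The difference between the lists was 30.8 percentage points (44.9% against 14.1%, Fisher's exact test, two-sided, p = 9.25e-21, adjusted p = 1.29e-19). Peaks were the units here and in the overlap comparison below. With 1 merged list per tissue, the p-values measure no spread between animals. Adjoining peaks also count singly, and 26 of the 80 hippocampal members lay within 2 nt of another peak. Without *Malat1* and *Meg3*, an alternative chosen after seeing the data, the difference was 18.7 points (48 of 146 hippocampal peaks, exact test, p = 3.87e-08, adjusted p = 2.71e-07). With 1 peak per gene and group the call was lost, at 8.33 points (40 of 98 against 167 of 514, exact test, adjusted p = 0.346). Hippocampal members also overlapped a whole-brain peak less often than deep intronic hippocampal peaks did, in 11 of 80 cases (13.8%, 7.07 to 23.3) against 44 of 98 (44.9%, 34.8 to 55.3), a difference of −31.1 points (Fisher's exact p = 7.92e-06, adjusted p = 3.60e-05). With 1 peak per gene and group this was −8.71 points (exact test, adjusted p = 0.547).

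The 11 members found in both tissues fell into few kinds. The *Nrxn2*, *Nrxn3*, *Brinp1* and *Cnksr2* peaks lay beside internal exons and held 4 to 6 UWAA starts in the hippocampal window. *Cnksr2*, which encodes a postsynaptic scaffold, had its peak 834 nt upstream of an exon in hippocampus and 831 nt in whole brain, sharing 107 nt, with log2 fold changes of 2.46 and 3.41. In *Brinp1* the peaks shared 79 nt upstream of an exon (2.03 and 2.32). *Tardbp* was the only shared 3′ UTR. *Gm22126* and *Gm23680* were small nuclear RNA genes and *Grcc10* overlapped *Rnu7*. The remaining 3, *Pard3b*, *Kcns2* and *Dock1*, were the short peaks with an adaptor match, with the same start and end in both lists for *Pard3b* and *Dock1*.

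Repeat-derived sequence was less common beside exons in hippocampus. Windows with over 20% repeat-masked bases made up 5 of 13 exon-side and 75 of 98 deep intronic hippocampal peaks (−38.1 points, Fisher's exact p = 0.00751, adjusted p = 0.0210), a call lost in 6 alternatives. In whole brain they made up 82 of 182 and 921 of 1766 (45.1% and 52.2%, exact p = 0.0733, adjusted p = 0.128).

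By function, the whole-brain members reached most groups of synaptic genes, at a lower share of their peaks than over the whole list for adhesion genes. Of 59 genes for synaptic adhesion molecules and organizers 27 had a whole-brain peak. Of their 585 peaks 23 (3.93%) were members, in 10 genes, beside 14.1% over all peaks, and 21 of them held UWAA. They included 8 in *Nrxn2* and 3 in *Lrrtm4*. Among glutamate receptors 25 of 120 peaks were members (20.8%), in *Grm4*, *Gria2*, *Grik2* and *Gria4*, 16 of them with UWAA. Excitatory postsynaptic scaffolds had 12 of 116 (10.3%), all with UWAA, in *Lrrc7* (6), *Cnksr2* (2), *Dlg1* (2), *Dlgap1* (1) and *Sipa1l1* (1). The presynaptic release machinery had 10 of 88, all in *Stxbp5l* and *Syt1* and all with UWAA. Voltage-gated ion channels had 3 of 78. Genes of RNA-binding proteins and splicing regulators held 29 members among 155 peaks (18.7%), 18 of them in *Rbfox3*. All 12 whole-brain and all 33 hippocampal peaks in nuclear long non-coding RNAs were members, and all were centred in exons. Where exons make up most of a gene, membership follows from the rule. These shares are therefore not comparable with those of the other groups.

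Few of the listed marker genes of interneurons, glia and endothelium had any peak. Of 13 oligodendrocyte markers *Mbp*, which encodes a major protein of myelin, was the only one with a whole-brain peak, and 10 of its 13 peaks (76.9%) were members, beside 14.1% over all whole-brain peaks. In hippocampus *Pdgfra* had 1 peak, a member 80 nt upstream of a transcript start (log2 fold change 2.25). Of 10 astrocyte markers *Slc1a2* had 1 peak, in whole brain, also a member (2.06). Of 20 markers of GABAergic interneurons 1 had peaks, 6 in whole brain and 1 in hippocampus, with 0 members among them. *Gria4*, which is outside that list, had 2 whole-brain members. The paper names it among genes expressed preferentially in GABAergic interneurons. The 12 markers of microglia and endothelium had 0 peaks of any kind in either tissue. Of the genes that the study names, *Nrxn2*, *Nrxn3*, *Stxbp5l*, *Lrrtm4*, *Dlgap1*, *Tenm2* and *Gria4* were among those with a member. *Nlgn1*, which encodes a postsynaptic partner of neurexins, had 35 whole-brain peaks and none within 1000 nt of an exon, the nearest being 5123 nt away.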

How the data were processed

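SLM2 eCLIP was performed by the authors on wild-type whole brain and hippocampus of mice aged 30 days. Per the labels, reads were trimmed with cutadapt 3.4, mapped to mm10 with STAR 2.7.9 and deduplicated with UMI-tools 1.1.1. Per the study's methods, the authors called peaks with CLIPper and merged both replicates of a tissue by irreproducible discovery rate (IDR). The deposited lists give for each peak a log2 fold change of eCLIP over input and, as −log10 values, a p-value and an IDR, all computed by the authors, with a threshold of 2 for the log2 fold change and the −log10 IDR. The lists have no column names, and their meaning was taken from the study's supplementary sheets. Merging hides the spread between replicates, and reads from repeats or multi-copy genes may be misplaced.

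Peak centres were placed on GENCODE exons of GRCm38 (the build of mm10, 55450 genes) on the same strand. A peak was assigned to the upstream or downstream side, a coding exon, a UTR or a non-coding exon. UWAA was counted within 50 nt of the centre on the strand of the RNA. An exon was called skipped where another transcript of the gene joins its flanks without it. Shares were compared by two-sided Fisher's exact tests and the side by an exact binomial test, with Benjamini-Hochberg adjustment over 14 comparisons at 0.05. Peaks, not animals, are the units of these tests, so p-values measure counting error within 1 list per tissue, and peaks of 1 gene are not independent. Rates carry exact Poisson intervals. The procedures were tested on simulated data. Members, gene lists and tests were chosen with earlier results of these data known, and the lists serve as descriptions.

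Named genes were those the study names, all genes with a coding-exon or UTR peak, the strongest and nearest peaks of each group, the genes with most members, those shared between tissues, those beside skipped coding exons and leading members of each gene list. Alternatives were stricter thresholds, the 5′ end of the peak, another exon annotation, a limit of 500 nt, 1 peak per gene and group, and leaving out adaptor matches, masked windows or the gene with most members. Libraries from *Slm2* KO hippocampus were not analysed here. Some genes are counted in the totals but not reported here by name. Python 3.11.15 was used with numpy 2.4.6, pandas 2.3.3, scipy 1.17.1 and matplotlib 3.10.9.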

Additional observations from a re-analysis of the deposited data

How the results depend on the processing

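Of 136 alternative values over 14 comparisons, 102 kept their direction and their side of the threshold. No paired analysis was possible because the authors merged the replicates of each tissue into 1 list. Single replicates were not left out for the same reason. The cause of the changes below was not tested. Shares are in percentage points.

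The hippocampal excess of members was 8.33 with 1 peak per gene and group, and the overlap difference −8.71. The downstream share in whole brain was 54.5% at splice sites of internal exons only, and the hippocampal share was 33.3% at a −log10 p of at least 2 and 42.9% with coding-frame and long non-coding exons only. The whole-brain motif difference between sides was −34.0 with peaks enriched at least 3 on the log2 scale, −14.4 with 5′ ends, −16.1 at 500 nt, −18.8 with 1 peak per gene, −17.6 without *Rbfox3* and −19.6 in windows with at most 20% masked bases, all short of the threshold. In hippocampus it turned to 50.0 at a −log10 p of at least 2 and to 5.56 with coding-frame exons, and it could not be computed with peaks enriched at least 3 on the log2 scale, where a side was empty. The motif difference between exonic and exon-side peaks in whole brain was −3.15 with peaks enriched at least 3 on the log2 scale, 13.3 at a −log10 p of at least 2 (exact test, adjusted p = 0.0508), 11.8 with 5′ ends, 10.1 with coding-frame exons, 12.8 at 500 nt, 8.12 with 1 peak per gene, 11.5 without *Rbfox3*, 12.2 within 25 nt and 14.7 in windows with few masked bases. In hippocampus it was 3.43 with 5′ ends. The hippocampal motif difference between exon side and deep intron was 13.3 with peaks enriched at least 3 on the log2 scale, on 1 exon-side peak. The skipped-exon difference was −18.5 at 500 nt. The masking difference in whole brain passed the threshold with 5′ ends (−15.5) and with over 50% masked (−7.90). In hippocampus it lost the call at −80.0 (log2 fold change), −70.8 (−log10 p), −25.7 (5′ ends), −37.3 (500 nt), −39.1 (1 peak per gene) and −23.9 (over 50% masked). Adaptor matches differed by 4.73 at 500 nt (exact test, adjusted p = 0.0311).

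Both the motif difference between exon side and deep intron in whole brain (−30.7 to −12.5) and, outside internal exons alone, the downstream share (64.2% to 69.7%) passed the threshold throughout. The 13 hippocampal exon-side peaks and the unknown read depth limit the hippocampal values.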
